A study of Caenorhabditis elegans with 2 samples.

Results

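The regions described here are the 276 recovered regions with a summit at a tRNA gene on one of the 5 autosomes of Caenorhabditis elegans, out of 16958 regions in the deposited list made from both replicates together. A region was a member when its summit, the base of highest signal that the authors' list gives, lay inside a gene annotated as tRNA or within 100 bp of one. The signal of a region played no part in that choice. The study immunoprecipitated chromatin from whole young adult hermaphrodites of strain OP478, genotype unc-119(tm4063) III; wgIs478, collected 64 h after synchronization as starved L1 larvae. These animals carry an inserted transgene whose product is the protein of T07F8.4 with GFP and FLAG at its C terminus. Per the labels the antibody was against GFP, although one antibody field names T07F8.4 itself, and both samples (n = 2) are biological replicates of that one strain and stage. Animals without the transgene and input chromatin were not analysed here, so a region shows recovery in this immunoprecipitation, and whole animals mix all tissues.

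tRNA genes are short genes transcribed by RNA polymerase III, and their promoter lies inside the transcribed sequence. It has an A box near the start of the gene and a B box towards its end, which are bound by the factor TFIIIC. TFIIIC places TFIIIB just upstream of the gene, TFIIIB recruits the polymerase, and a run of T in the non-template strand ends transcription. The worm genome holds many tRNA genes with the same sequence, scattered over all chromosomes, and many of them lie in introns of protein-coding genes.

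The sequences below are those of 7 member genes to which later results refer, each with 20 bases on either side, read 5′ to 3′ on the gene's own strand from the RefSeq genome sequence of ce11 (WBcel235). Capitals mark the matches to the A box and to the B box motif GTTCNANNC, where N is any base. T23F1.t1 and F44A2.t1 carried the highest signals, W09G10.t3 shared its summit with a neighbouring tRNA gene, C14B9.t2 and F57F5.t1 have an intron that lengthens the stretch between the boxes, Y54G2A.t3 had its summit downstream of the gene, and Y69A2AR.t2 was the highest member without a B box match among genes that have no identical copy.
T23F1.t1, tRNA-Lys, chrV:15465066-15465178, plus strand: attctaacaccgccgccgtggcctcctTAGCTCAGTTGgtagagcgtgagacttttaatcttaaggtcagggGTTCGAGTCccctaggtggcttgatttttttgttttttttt
F44A2.t1, tRNA-Ala, chrV:9318182-9318293, plus strand: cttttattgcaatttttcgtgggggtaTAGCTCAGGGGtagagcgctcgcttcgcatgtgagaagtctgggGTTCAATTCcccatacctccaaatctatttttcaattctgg
W09G10.t3, tRNA-Thr, chrII:3519066-3519177, minus strand: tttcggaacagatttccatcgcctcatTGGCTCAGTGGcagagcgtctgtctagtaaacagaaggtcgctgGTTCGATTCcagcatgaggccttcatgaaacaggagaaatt
C14B9.t2, tRNA-Leu, chrIII:8109583-8109744, plus strand: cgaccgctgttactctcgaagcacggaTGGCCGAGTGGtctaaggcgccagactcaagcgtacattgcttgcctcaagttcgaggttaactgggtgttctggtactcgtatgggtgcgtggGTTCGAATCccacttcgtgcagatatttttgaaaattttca
F57F5.t1, tRNA-Ile, chrV:12002156-12002280, plus strand: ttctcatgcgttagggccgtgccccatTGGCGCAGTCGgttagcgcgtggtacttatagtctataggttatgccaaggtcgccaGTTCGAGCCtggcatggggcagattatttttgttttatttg
Y54G2A.t3, tRNA-Asp, chrIV:2805607-2805718, plus strand: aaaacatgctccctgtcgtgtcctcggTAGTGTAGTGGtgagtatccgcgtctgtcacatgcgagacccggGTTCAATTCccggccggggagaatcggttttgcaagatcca
Y69A2AR.t2, tRNA-Glu, chrIV:2639789-2639900, minus strand: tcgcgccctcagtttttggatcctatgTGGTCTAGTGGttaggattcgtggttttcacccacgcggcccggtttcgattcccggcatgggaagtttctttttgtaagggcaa

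Of the 276 regions, 125 were also in the authors' list of reproducible peaks, which the irreproducible discovery rate (IDR) was used to choose out of the replicate and pooled lists. This is 45.3% (95% Wilson interval 39.5 to 51.2%), against 3.07% of all 14192 autosomal regions. Intervals here cover counting error only, and neighbouring regions and genes of equal sequence are not independent. tRNA genes gave 1.94% of the autosomal regions and 28.7% of the 435 autosomal reproducible ones. The reproducible list consisted of exactly the 621 regions with the highest pooled signal, with 68.23 for its lowest autosomal region and 68.19 for the highest region left out, so to be reproducible here means to pass that signal. For each replicate alone, the same number of regions with the highest signal was taken as called. On that basis 40.5% of 274 tRNA regions were called in the list of replicate 1, where the share over all autosomal regions was 2.73%, and 42.8% of 264 in the list of replicate 2, where it was 2.93%. Both replicates therefore placed the share within a few points of the pooled one.

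The signal is the authors' own value for each region, whose scale was not stated. Regions were ranked and compared within a list, and values of the replicate lists are set side by side only as a description. The 276 regions had a median signal of 64.0 (quartiles 45.1 and 87.2, range 17.5 to 207), against 22.9 for the other 13916 autosomal regions. The 125 reproducible members had a median of 88.7, close to the 88.0 of all autosomal reproducible regions, and the other 151 members one of 46.1, which is still above the autosomal median. The highest member stood at rank 13 of the autosomal regions, and 5 members were among the first 50 and 19 among the first 100. At the boundary, the lowest reproducible members were at Y104H12A.t1, T23H4.t1 and ZK262.t1 with signals of 68.5, 68.5 and 68.4, and the highest others at M01E10.t1, Y4C6B.t1 and F14B6.t1 with 67.4, 67.3 and 67.2.

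The highest signal was at T23F1.t1, a lysine tRNA gene on chromosome V, with 207 in the pooled list, 102 in the list of replicate 1 and 105 in that of replicate 2. It was followed by the alanine tRNA gene F44A2.t1, also on V, with 201 in the pooled list and 98.4 and 103 in the replicate lists. W09G10.t3, a threonine tRNA gene on II, had 168, 83.9 and 86.2. At these 3 genes the 2 replicate values were close in number, although a common scale of the lists is not known. T21B4.t1, an isoleucine tRNA gene inside an intron of the collagen gene col-85 on the opposite strand, had 149 in the pooled list, 66.7 in replicate 1 and 84.5 in replicate 2. F08G5.t1, an arginine tRNA gene on IV, had 138, 78.5 and 60.2, and C14B9.t2, a leucine tRNA gene in an intron of C14B9.3 on III, had 138, 68.2 and 73.1. The replicates were thus not ordered alike over these genes. F10C1.t1, a glycine tRNA gene on II, reached 141 in the pooled list and 94.98 in replicate 1. The list of replicate 2 held no summit within 100 bp of the pooled one, but did hold one within 100 bp of the gene. On chromosome I the highest was the cysteine tRNA gene F32B4.t1 with 120.3 in the pooled list, 57.7 in replicate 1 and 55.8 in replicate 2. The remaining 8 of the 15 highest members had pooled signals of 122 to 131.

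Agreement between the replicates was measured by the nearest summit of each replicate list within 100 bp of the pooled summit. Both lists held one for 228 of the 276 members, or 82.6% (77.7 to 86.6%), and neither did for 6. Among all autosomal regions the share was 26.0%. It was 96.8% for the 125 reproducible members (121 regions), 70.9% for the 151 others (107 regions) and 93.9% for the 310 autosomal reproducible regions away from tRNA genes. Over the 228 members, the signals of replicate 1 and replicate 2 had a Pearson correlation of 0.68 and a Spearman correlation of 0.64. These are a description across regions that share the same libraries. Within the 121 reproducible members they were 0.47 and 0.31, and within the 107 others 0.08 and 0.12, each over a range that the signal boundary cuts. The plot of one replicate's signal against the other's shows the highest members high in both lists. Among the lower ones it shows little shared order, over a range cut by their pooled signal.

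**Figure D1:**
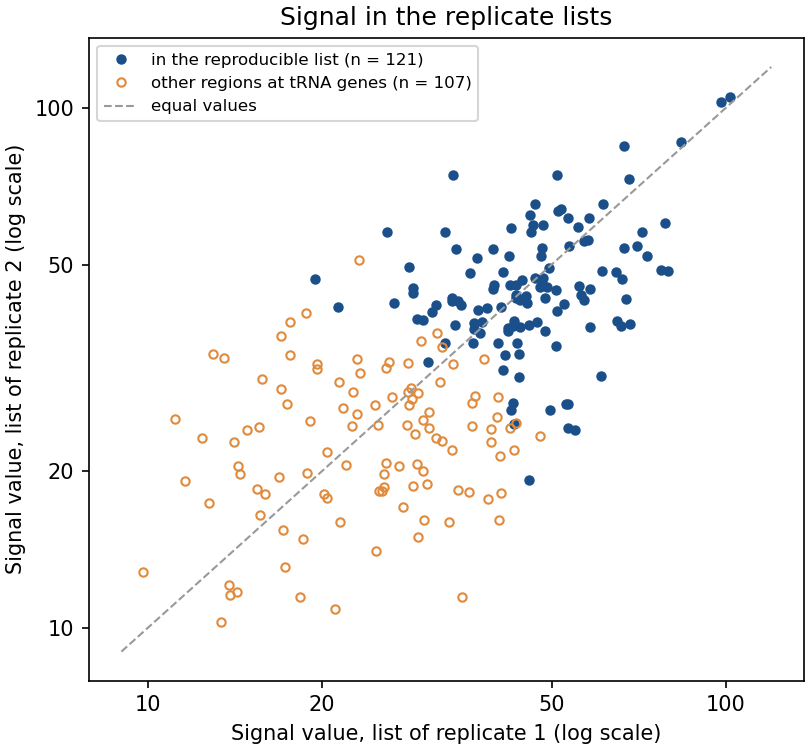
Signal value of 228 autosomal tRNA regions in the list of replicate 1 (x axis, log scale) and replicate 2 (y axis, log scale, authors' own units); filled points are the 121 reproducible members, open points the 107 others, and the dashed line marks equal values. The highest 3 points lie near the line, although a common scale of the lists is not known. The open points, cut by their pooled signal, had a Spearman correlation of 0.12, against 0.64 over all 228.

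Seen from the genes, the annotation holds 336 nuclear tRNA genes on the autosomes and 276 on X. A pooled region lay within 100 bp of 276 of the 336 autosomal genes (82.1%), and 60 genes had none. That number equals the number of regions only by coincidence: the nearest genes of the regions were 269, of which 7 had 2 regions, and some summits lay near a pair of genes. A reproducible summit lay at 135 genes, 40.2% (35.1 to 45.5%). No share over genes of other classes stands beside these counts, and the 3.07% given above is a share of regions. The list of replicate 1 had a region at 276 autosomal genes and that of replicate 2 at 258. On X, 81.9% of the genes had a pooled region, 0.259 percentage points fewer than on the autosomes (interval of the difference −5.79 to 6.47). The share of genes with a region thus differed by less than its counting error.

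The share of member regions in the reproducible list was 45.3% on the autosomes and 53.1% on X (120 of 226, 46.6 to 59.5%). In the whole list 621 of 16958 regions were reproducible, and in its autosomal part 435 of 14192. The share over all regions was thus higher outside the autosomes, and the X share was not set against it. Between tRNA regions on autosomes and on X the difference of −7.81 points had an interval of −16.4 to 0.972. In the single lists it was −9.26 points in replicate 1 (−17.9 to −0.458) and −13.6 in replicate 2 (−22.2 to −4.62). Autosomal regions were thus called less often in both replicate lists, while the pooled interval takes in 0. Their median signal was 64.0, against 70.8 on X. The median summit position was 18 bp after the first base of the gene on the autosomes and 14 bp on X.

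Among the autosomes, chromosome IV had the highest pooled share of reproducible members, 33 of 59 (55.9%, 43.3 to 67.8%), and chromosome V the lowest, 20 of 65 (30.8%, 20.9 to 42.8%). Chromosomes I, II and III had 26 of 52 (50%), 19 of 48 (39.6%) and 27 of 52 (51.9%). The order was not the same in each list: in replicate 1 chromosome III was highest (48.1%, against 44.8% for IV), and in replicate 2 chromosome II was lowest (34.0%, against 36.1% for V). Chromosome V also had the lowest share over all its regions, 2.31%, against 2.96 to 3.83% on the other autosomes. After these values were seen, V was set against the other autosomes: the difference was −19.0 points (−30.9 to −5.23), −19.4 in replicate 1 (−30.7 to −6.02) and −8.76 in replicate 2 (−21.6 to 5.45). The sign was the same in both replicates and the interval took in 0 in replicate 2. With only the 310 regions of highest signal in the whole list counted as reproducible, and the same members, it was −3.46 points (−12.8 to 8.48). Yet the 2 highest signals of all members, at T23F1.t1 and F44A2.t1, were both on V, where the median signal was 55.5, against 61.8 to 71.3 on the others. The plot of signal by chromosome shows a wide spread on every chromosome.

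**Figure D2:**
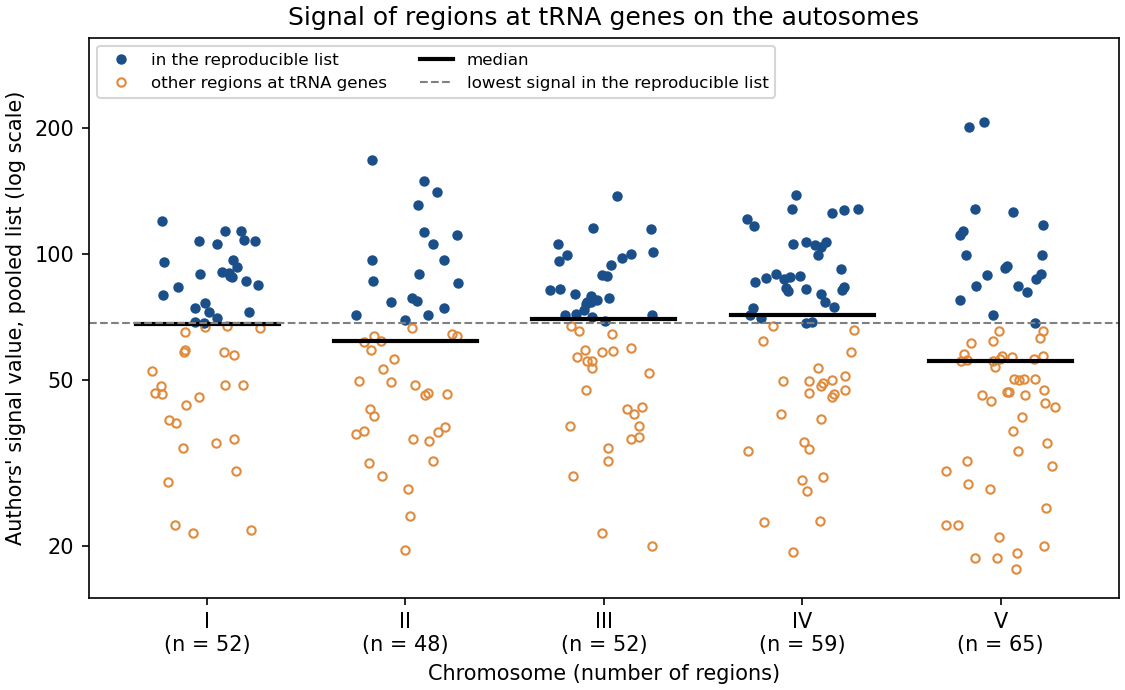
Pooled signal value (y axis, log scale, authors' own units) of the 276 autosomal tRNA regions by chromosome (x axis); filled points are reproducible members, open points the others, bars the medians, and the dashed line the lowest signal in the reproducible list. Chromosome V has the lowest median, 55.5, and the 2 highest points.

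Genes with and without a region differed in copy number and in promoter boxes. Of the 336 autosomal genes, 250 have at least 1 other nuclear tRNA gene with exactly the same gene body, up to 29 copies in all, and 86 have a body found nowhere else. A pooled region lay at 55 of the 86 sole-copy genes (64.0%), against 221 of the 250 identical-copy genes (88.4%), a difference of −24.4 points (−35.5 to −14.0). Replicate 1 had 59.3% of the sole-copy genes against 90% of the others (−30.7, −41.7 to −20.0), and replicate 2 60.5% against 82.4% (−21.9, −33.3 to −11.0). A reproducible summit lay at 24 sole-copy genes (27.9%), against 111 identical-copy genes (44.4%), a difference of −16.5 points (−26.9 to −4.59). Among genes with a region, no difference beyond counting error was detected: 23 of the 57 member regions at sole-copy genes were reproducible (40.4%), against 102 of the 219 at identical-copy genes (46.6%), a difference of −6.22 points (−19.7 to 8.26), with −1.10 in replicate 1 and −0.265 in replicate 2. The gene-level comparison was made after these values were seen, and with summits inside the gene only its difference for pooled regions was −12.3 points (−23.3 to −0.153). All 336 genes are unique once 25 bp on each side are added. How the authors' alignment placed reads that fit several copies is not stated in the labels or file descriptions, and its part in this difference was not tested. On X the corresponding shares of genes with a pooled region were 64.9% of 57 sole-copy and 86.3% of 219 identical-copy genes.

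The sole-copy genes were then divided by the smallest number of base edits that turns their body into that of another nuclear tRNA gene, a division made after the values were seen. Of the 22 that need 6 or more edits, 7 had a pooled region (31.8%, 16.4 to 52.7%), against 48 of the 64 that need 1 to 5 (75%, 63.2 to 84.0%). Genes with 2 to 9 identical copies had one in 82.8% of 87 cases, and genes with 10 or more in 91.4% of 163. A single one of the 22 most divergent genes had a reproducible summit, the serine tRNA gene F42A10.t2 on III, and it shared that summit with F42A10.t1. The only autosomal selenocysteine tRNA gene, K11H12.t1, whose product inserts selenocysteine at UGA codons, had a pooled region that was not reproducible. The gradient from divergent to many-copy genes appeared in the pooled list and in each replicate list, as the plot by copy number shows.

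**Figure D3:**
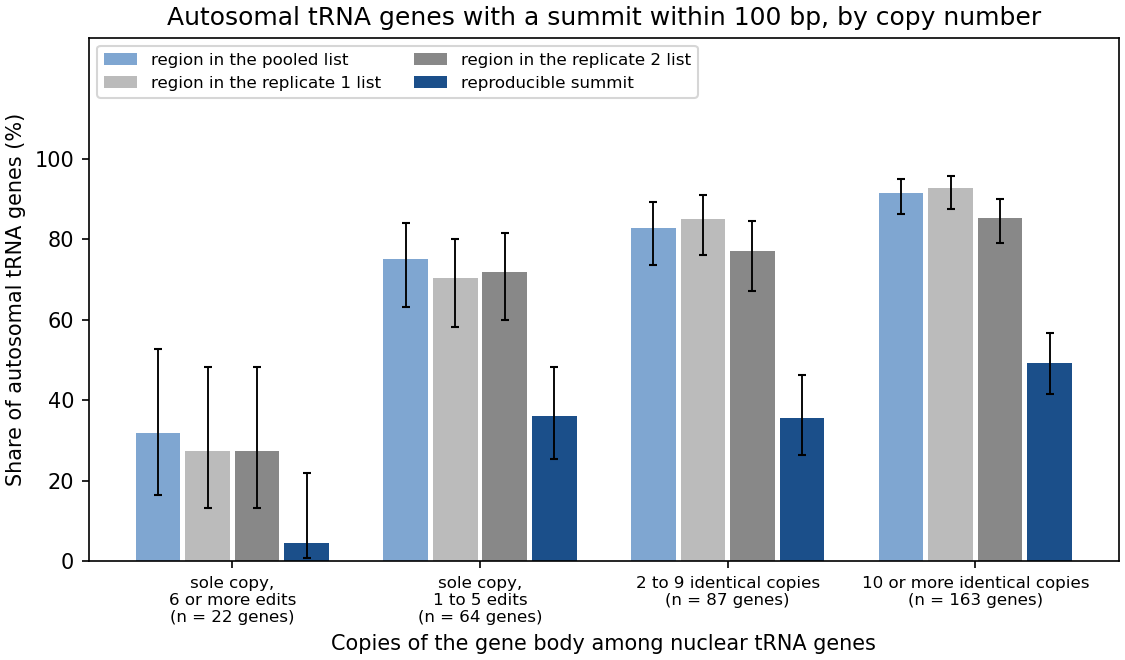
Share of the 336 autosomal tRNA genes (y axis, %) with a summit within 100 bp in the pooled list, in each replicate list and in the reproducible list, by the number of nuclear tRNA genes with the same body (x axis); sole-copy genes are divided by the base edits to the nearest other gene, and error bars are 95% Wilson intervals. Pooled shares run from 31.8% in the most divergent genes to 91.4% in genes with 10 or more copies.

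Genes without a match to one or both promoter boxes had a region less often. The motifs were searched on the gene strand, the A box within the first 30 bases and the B box in the whole gene. Of the 29 genes without one of the matches, 9 had a pooled region (31.0%, 17.3 to 49.2%), against 87.0% of the genes with both, a difference of −55.9 points (−70.1 to −37.3). It was −40.8 points in replicate 1 (−57.6 to −22.7) and −46.3 in replicate 2 (−61.4 to −27.5). With summits inside the gene only, the pooled difference was −20.5 points (−33.7 to −1.71). The 31.0% does not hold for each box alone: of the 17 genes without a B box match, 8 had a pooled region (47.1%, 26.2 to 69.0%). An A box match was missing in 14 genes, and 1 of the 276 member regions had such a gene as its nearest. Of the 29 genes, 18 were sole copies, and 3 of these 18 had a pooled region (16.7%, 5.84 to 39.2%), against 31.0% of all 29. Among genes with both boxes, 76.5% of 68 sole-copy genes and 90.0% of 239 identical-copy genes had a region, so that the difference by copies was −13.5 points there (−25.3 to −3.89). Both comparisons were made after values were seen. For reproducible summits the difference among genes with both boxes was −11.8 points, with an interval that took in 0 (−23.7 to 1.58).

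Among the 276 member regions, the nearest gene held a B box match in 268 cases (97.1%) and an A box match in 275. A run of TTTT followed within 50 bp of the gene end in 274. Of the 8 members without a B box match, 4 were at methionine tRNA genes. Y69A2AR.t2, a glutamate tRNA gene on IV and a sole copy, was the highest of the 8 that has no identical copy: its signal was 74.3 in the pooled list, 37.9 in replicate 1 and 38.7 in replicate 2, and it was reproducible. Its sequence above shows the A box in capitals and no capitals where the other genes have the B box. In a window of 100 bp on each side of the summit, on either strand, the B box motif was present in 88.8% of the members, in 9.65% of all autosomal regions and in 17.7% of the autosomal reproducible regions away from tRNA genes. The motif is part of what makes a tRNA gene, so its presence at the members follows from how they were chosen. GC content did not separate the members, with a median of 58.3% of the gene body in reproducible and in other members.

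The median summit position was 18 bp after the first base (quartiles −13 and 61), where negative values lie upstream, and it was 14 bp in replicate 1 and 16 bp in replicate 2. Of the 276 summits, 144 (52.2%) were inside the gene, 87 (31.5%) upstream and 45 (16.3%) downstream. The gene body has a median length of 72 bp, and the middles of the A and B boxes lie at bases 13 and 57 in the median gene. The summit was nearer to the A box than to the B box in 157 of 267 members with both (58.8%), in 82 of 122 reproducible members (67.2%) and in 75 of 145 others (51.7%). The median distance from the A box middle was 33 bp and from the B box middle 49 bp. The summits of the 2 replicates lay a median of 35.5 bp apart, not far below the 44 bp between the boxes. That median covers the 228 members with both replicate summits within 100 bp of the pooled one. Members with a farther or missing replicate summit were left out of it. Single summits therefore do not resolve one box from the other, and only the distribution can be read.

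**Figure D4:**
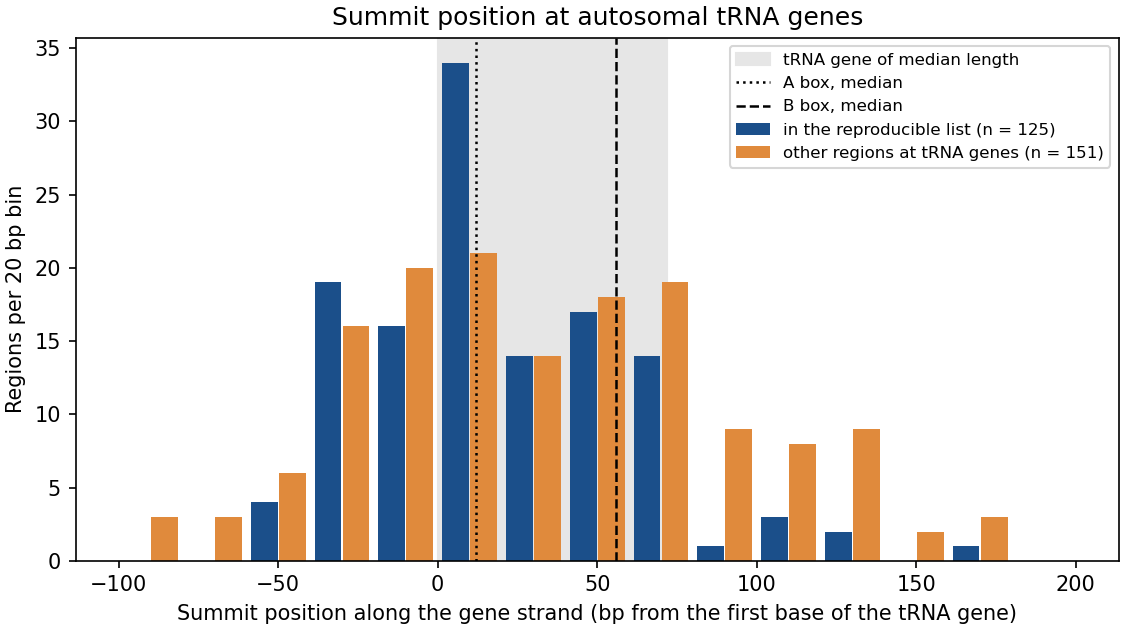
Number of member regions (y axis, per 20 bp bin) by summit position along the gene strand (x axis, bp from the first base of the tRNA gene), for the 125 reproducible members and the 151 others; grey marks a gene of the median length of 72 bp and the lines the median middle of the A and B boxes. Reproducible summits peak in the first 20 bp of the gene and few lie downstream of it.

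Downstream summits were the least often reproducible, 10 of 45 (22.2%, 12.5 to 36.3%), against 115 of 231 inside or upstream (49.8%), a difference of −27.6 points (−39.2 to −12.1). Replicate 1 gave −17.3 points (−30.1 to −0.711) and replicate 2 −27.0 (−38.1 to −12.5), so the sign held in both. With only the 310 regions of highest signal in the whole list counted as reproducible, and the same members, it was −7.45 points (−16.5 to 6.24). This comparison was chosen after the positions were seen. Summits inside the gene were reproducible in 52.8% of cases, against 37.1% outside, a difference of 15.7 points (3.90 to 26.8). But in replicate 1 it was 2.72 (−8.86 to 14.1) and in replicate 2 22.2 (10.2 to 33.4). This difference between inside and outside was also not among the planned comparisons. Among the 15 highest members, Y54G2A.t3, an aspartate tRNA gene on IV with a pooled signal of 125, had its summit 97 bp past the gene end and 62 bp from the start of a protein-coding gene. F10C1.t1 had its summit 60 bp past the end and 368 bp from a protein-coding start. At F44A2.t1 the summit was inside the gene and 91 bp from a protein-coding start. At these genes the recovered DNA cannot be given to the tRNA gene or to its neighbour from the summit alone. Over all members, those within 500 bp of a protein-coding start were reproducible in 32 of 60 cases (53.3%), against 93 of 216 farther away (43.1%), a difference of 10.3 points with an interval of −3.84 to 23.9.

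No difference beyond the counting error was detected by the location of the gene. Members in an intron of a protein-coding gene were reproducible in 70 of 154 cases (45.5%) and intergenic members in 51 of 115 (44.3%), a difference of 1.11 points (−10.8 to 12.9), with −4.03 in replicate 1 and −0.593 in replicate 2. A further 7 members overlapped an exon, and 4 of them were reproducible. Within introns, genes on the strand opposite to the host were reproducible in 30 of 58 cases (51.7%) and genes on the host's strand in 40 of 96 (41.7%), a difference of 10.1 points (−6.00 to 25.5). The intronic members lay in 129 host genes, of which 22 held 2 or more. Among them srv-16, a serpentine receptor gene, held 3 regions, of which 2 were reproducible, with signals of 46.1 to 105. tRNA genes on the plus strand were reproducible in 66 of 134 cases (49.3%) and on the minus strand in 59 of 142 (41.5%), a difference of 7.70 points (−3.998 to 19.1), with 8.67 in replicate 1 and 9.87 in replicate 2. The plot of shares shows these classes beside the share over all autosomal regions.

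**Figure D5:**
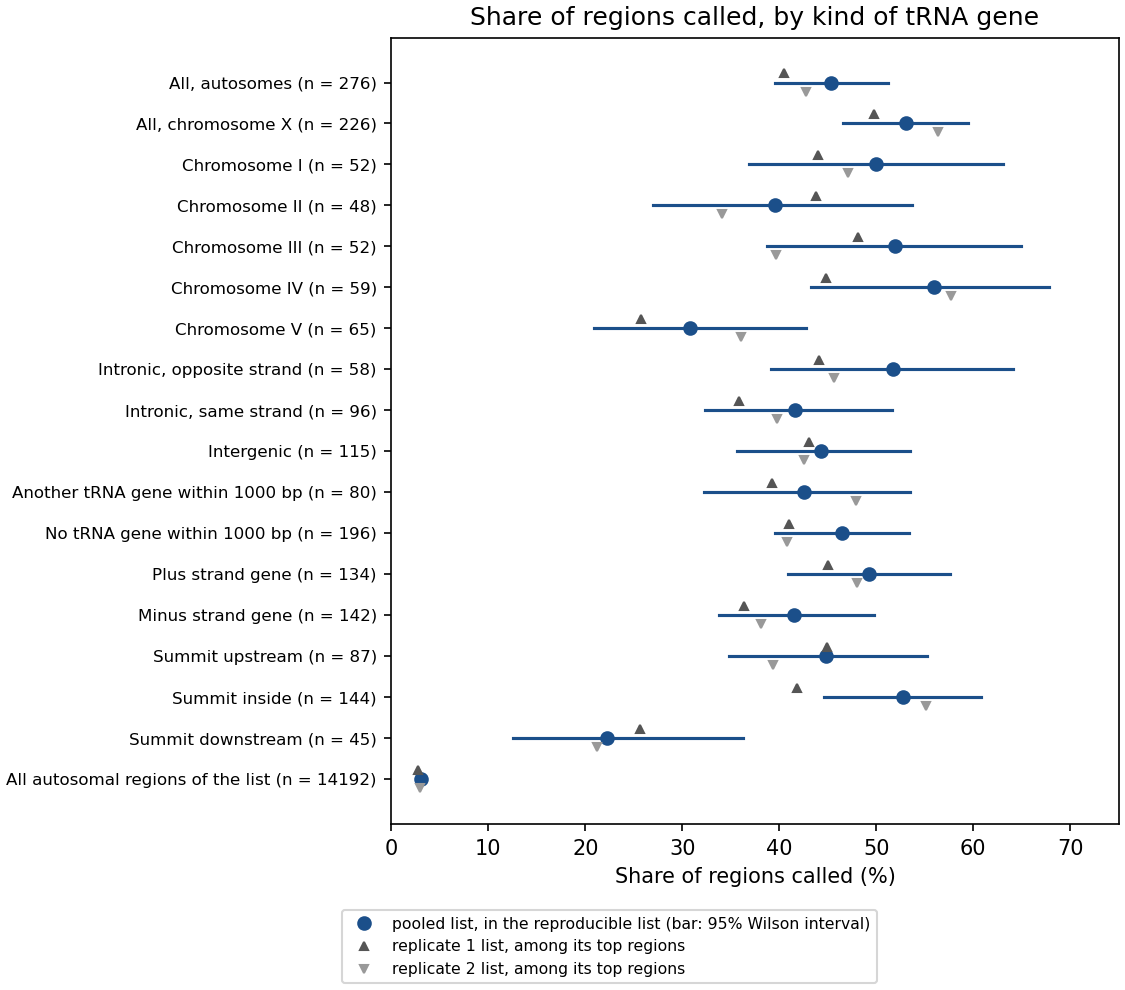
Share of regions called (x axis, %) for autosomal tRNA regions by class (y axis, with the number in the pooled list), beside X and all autosomal regions; circles are the pooled list with 95% Wilson intervals, triangles the single replicate lists. Every tRNA class lies above the 3.07% of all autosomal regions, and in the pooled list downstream summits and chromosome V are lowest among them.

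Of the members with another tRNA gene within 1000 bp, 34 of 80 were reproducible (42.5%), against 91 of 196 without a neighbour (46.4%), a difference of −3.93 points (−16.3 to 8.97). It was −1.79 in replicate 1 and 7.11 in replicate 2, so the sign was not shared. With neighbours counted within 500 bp only it was −15.2 points, and that interval also took in 0 (−28.6 to 0.549). Runs of 3 or more genes numbered 7, with 23 genes and 20 regions, of which 8 were reproducible. In the run of histidine tRNA gene Y65A5A.t4 on IV, 3 of the 4 regions were reproducible, with signals of 53.2 to 99.7. The run of glycine tRNA genes C12C8.t2 to C12C8.t5 on I had 3 regions with signals of 43.4 to 66.4 and none reproducible. In the run of F08G5.t1 on IV the signals ranged from 22.7 to 138. Regions of one run thus differed widely in signal at some runs and less at others, such as that of K04C2.t2 on III (58.1 to 76.0).

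Summits that lay within 100 bp of a pair of tRNA genes stood higher. Of 11 such regions 10 were reproducible (90.9%, 62.3 to 98.4%), with a median signal of 98.1, against 115 of 265 near a single gene (43.4%), with a median of 61.7. The difference was 47.5 points (18.2 to 57.0), and it was 41.0 in replicate 1 (9.43 to 56.4) and 59.0 in replicate 2 (26.0 to 64.8). This class was chosen after the values were seen and rests on few regions. It includes T23F1.t1, which faces the proline tRNA gene T23F1.t2 across a gap of 66 bp, with a summit in the gap, and W09G10.t3, which follows the lysine tRNA gene W09G10.t2 on the same strand at a gap of 92 bp. It also includes 6 pairs that point away from each other, among them the proline pair W09D6.t1 and W09D6.t2 in an intron of rsa-2, with signals of 98.1, 46.7 and 47.0 in the pooled, replicate 1 and replicate 2 lists. A summit between the genes of a pair cannot be given to one of them.

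In all, 22 pairs of neighbouring autosomal tRNA genes had gaps under 200 bp, and 14 of these pairs had a reproducible summit. A pair was counted when such a summit lay at either of its genes, and 40.2% of all 336 autosomal tRNA genes had one. The count of 14 was not compared with that of separate genes, so it does not set close pairs apart. Of the pairs, 15 pointed away from each other, and in all 15 both genes were of the same isotype, the amino acid that the tRNA carries. A reproducible summit lay at 7 of these 15 pairs and at all 7 pairs in other arrangements, a count made after the values were seen. Arrangement was not separated from the gap. Of the 14 pairs with gaps up to 120 bp, 11 had a reproducible summit, against 3 of the 8 with wider gaps. The 7 pairs in other arrangements included the threonine and lysine genes side by side on one strand at W09G10, W10G11 and C16C8. All of these are on chromosome II, with highest signals of 168, 106 and 131.

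By isotype, reproducible members were found for 20 amino acids. All 6 members at cysteine tRNA genes were reproducible, with signals of 81.0 to 120.3, and 4 of 6 were called in replicate 1 and 6 of 6 in replicate 2. Tryptophan had 4 of 6. Of the groups with 16 or more members, those above the overall share of 45.3% had counts of 9 of 16 for arginine, 14 of 25 for lysine, 13 of 25 for glycine, 9 of 18 for leucine, 8 of 17 for alanine and 9 of 17 for threonine. Those below it had 7 of 16 for serine, 7 of 17 for glutamate, 6 of 17 for proline and 5 of 16 for valine. The lowest pooled counts were 2 of 11 for asparagine, 2 of 11 for glutamine, 1 of 5 for phenylalanine and 2 of 7 for histidine. Some of them varied between the lists: asparagine had 1 of 12 in replicate 1 and 4 of 10 in replicate 2, and glutamine 3 of 9 and 1 of 9. Phenylalanine had 2 of 7 and 0 of 6, and histidine 1 of 8 and 2 of 7. Each of these shares lay below the overall 40.5% of replicate 1 or 42.8% of replicate 2. One of the glutamine genes, T03E6.t1 on V, had a signal of 128 in the pooled list, 71.7 in replicate 1 and 57.8 in replicate 2, although its isotype was among the lowest by pooled count. Groups of this size carry wide intervals, so the order of isotypes is a description. Members at tRNA genes with an intron numbered 15, of which 7 were reproducible, among them C14B9.t2 and the isoleucine gene F57F5.t1 with a pooled signal of 126.

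Other autosomal genes known to be transcribed by RNA polymerase III were looked up by name. None of the 16 5S ribosomal RNA genes (rrn-4) had a region, and most of these lie in an array of repeats on chromosome V. How reads that fit several repeats were placed is not stated, and its part in this was not tested. The empty array was therefore not read as a lack of recovery. The gene of the RNase P RNA, rpr-1, which cuts tRNA precursors, had a reproducible summit with a signal of 245, above every tRNA gene. The gene mrpr-1, for the related RNase MRP RNA, had one with 131. Of the signal recognition particle RNA genes, srpr-1.1 had a reproducible summit with a signal of 69.1, srpr-2.1 with 84.8 and srpr-2.2 with 112, while srpr-1.2 had no region and srpr-3 had regions up to 51.1 that were not reproducible.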

How the data were processed

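Chromatin immunoprecipitation with sequencing was done on 2 biological replicates of 1 group. Per the deposited readme, the authors called regions on each replicate and on both together with 1 further file, and selected the reproducible list by IDR; the sources used here do not give the aligner, the caller, the IDR threshold or the treatment of reads fitting several places. Each deposited signal is the region's own value and the deposited q-value stands as −log10; 85 members were at its ceiling, so signal ranked the regions. Depth is unknown. Lists on ce10 were not used.

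Summits (1-based, ce11) were assigned to tRNA genes of Ensembl release 115; RefSeq of the same assembly gave isotypes and sequence, all 336 autosomal genes matched and 2 had no isotype. Shares carry Wilson and differences Newcombe 95% intervals; with 1 group no test was made. Functions were tested on simulated data (Python 3.11.15, pandas 2.3.3, numpy 2.4.6). Members, lists and tests were chosen with earlier results of these data known. Genes named by rule: the 15 highest reproducible members, the highest of each autosome and isotype, 3 on each side of the boundary, and runs of 3 or more; others were picked once their values had been seen. The samples are called biological replicates in the labels, with no control group, so shares measure these lists.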

Additional observations from a re-analysis of the deposited data

How the results depend on the processing

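Of 98 values recomputed under alternatives, 66 stayed within the interval or replicate spread of the reported value, 32 moved and none of those whose interval left out 0 changed sign; 26 of the 98 belong to the comparisons by copies, boxes, downstream summits, chromosome V and gene pairs, chosen after seeing the data. With summits inside the gene only, the reproducible share was 52.8%, genes with a reproducible summit 76, the median position 32.5 bp, median signal 68.7, the share in both replicate lists 88.2%, the distance to the B box −27 bp, and genes with a region differed by −12.3 points by copies and −20.5 points by boxes. Within 200 bp, the position was 24 bp, the share inside 45.6%, the signal 56.9, the share in both lists 75.6% and the B box distance −36 bp; within 50 bp, the signal was 66.4 and the B box distance −42 bp. The higher-signal part of the reproducible list (310 regions) gave a share of 19.6%, 60 genes, and differences of −7.45 points for downstream summits and −3.46 for chromosome V, whose intervals took in 0; the cause was not tested beyond the smaller list. There the autosomal minus X difference was −14.5 points (−22.2 to −6.74), also not set against the share over all X regions. Reproducible members alone gave a position of 14 bp, 60.8% inside and a B box distance of −46.5 bp. Matching replicate summits within 50 bp and 200 bp gave 60.1% and 90.9%. Single replicate lists gave positions of 14 to 16 bp, 44.7 to 53.3% inside, signals of 31.0 to 32.7 on each list's own scale, B box distances of −44 to −43.5 bp, and 41.0 to 59.0 points for summits near 2 genes; with a window of 50 bp that difference was 52.0 points (−14.1 to 58.1). No paired analysis was possible because the replicates form 1 group. Identical copies with 25 bp flanks gave no value, as no gene has any.

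The lists hold no read counts, no untagged animals and 2 replicates, so depth, antibody background and the spread between animals limit every share. Summits of the replicates lay a median of 35.5 bp apart at the 228 members matched within 100 bp, which limits statements on position.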
